A study of Mus musculus with 13 samples.

Results

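The clustered protocadherins are neuronal cell-surface cadherins encoded side by side on mouse chromosome 18 in 3 clusters, alpha, beta and gamma. The members were chosen by symbol, as every row whose name begins with Pcdha, Pcdhb or Pcdhg followed by the number or type of a variable exon, and 59 of the 24421 genes in both count tables met this rule. They were 14 alpha genes, 22 beta genes, 22 gamma genes and 1 read-through row, Pcdha7-g, which starts in the alpha cluster and ends in the gamma cluster.

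RNA was sequenced from F1-2.1 cells, female mouse embryonic stem (ES) cells from a cross of CAST/Ei with 129/Sv/Jae, carrying a doxycycline (dox)-inducible transgene for CTCF S224E. CTCF is the zinc finger protein that holds chromatin loops together with cohesin, and S224E replaces a serine by glutamic acid, which mimics phosphorylation. All 4 libraries came from 1 clone, A2, whose endogenous Ctcf remained and which was grown on irradiated fibroblast feeders: 2 cultures received 1 μg/mL dox for 6 days (+dox) and 2 received none (−dox). RNA of cells given dox without this transgene, or with a wild-type CTCF transgene, is not analysed here, and dox and CTCF S224E cannot be told apart.

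In neurons each alpha or gamma promoter drives its own large variable exon, which is spliced to constant exons shared by the whole cluster. Beta genes are single large exons with no constant part. CTCF and cohesin bind at most of these promoters and at distal enhancers, promoter choice differs from neuron to neuron, and the proteins, which bind like with like between membranes, let a neuron tell its own branches from those of others. The C-type genes (Pcdhac1, Pcdhac2, Pcdhgc3, Pcdhgc4 and Pcdhgc5) stand last in their clusters and are less subject to this random choice.

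In the mm9 coordinates of the tables, the alpha genes ran from position 37089939 to 37347314 of chromosome 18, the beta genes from 37424652 to 37681073 and the gamma genes from 37821599 to 38001526. The alpha genes share 3 constant exons of 2860 nt in total, the last of which, at 37344600 to 37347311, is 2712 nt long. The gamma genes share 3 constant exons of 2119 nt in total, the last of which, at 37999557 to 38001527, is 1971 nt long. Within the alpha and within the gamma cluster the counts were nearly the same, from which it was inferred that a read on a constant exon entered the count of every gene holding it, so that the rows of the alpha or gamma cluster are not independent measurements. All shared and own reads given here rest on this reading of the counts.

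Counted reads ranged from 22899107 to 30206085 per library, and levels are given as CPM, the counts scaled to library size with TMM factors. Pou5f1, a defining ES cell gene, lay between 949 and 1254 CPM, and no gene of the list of 20 naive pluripotency genes was at 0 in any library. Ctcf, whose row does not separate the endogenous gene from the transgene, was at 327 and 329 CPM with dox and at 295 and 304 CPM without (log2 fold change 0.13, adjusted p = 0.475 in edgeR's quasi-likelihood test). The +dox replicate 1 library stood apart: all 36 genes of a list of fibroblast markers, the feeder cell type, were highest there. Of the 20 naive pluripotency genes 3 were highest there and 13 in +dox replicate 2, and the share over all genes was not computed. The summed fibroblast list was at 6761 and 3512 CPM with dox and at 3003 and 3418 CPM without, and none of its genes was at 0 in any library. In bulk RNA, a change in the number of cells of a type and a change in RNA per cell cannot be told apart.

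The reads that the gamma genes share were higher with dox in both replicates, but not at an adjusted p under 0.01. Reads particular to single gamma genes, summed, were higher with dox in the first replicate only. The alpha and beta clusters had too few reads for a difference to be resolved. At an adjusted p under 0.01, edgeR's quasi-likelihood test called 0 of the 58 members tested, beside 0.599% of all 20044 genes tested (0.0798% higher and 0.519% lower with dox), and DESeq2 also called 0 members, beside 1.87%. At the looser threshold of 0.05, edgeR called 0 members, beside 2.86% of all genes, and DESeq2, in an alternative chosen after seeing the data, called 22 (21 gamma genes and Pcdha7-g), beside 3.88%. An unadjusted p under 0.05 was reached by 23 members, namely the 22 gamma genes and Pcdha7-g, beside 17.8% of all genes. These 23 rows carry largely the same reads and amount to 1 measurement. The remaining gene, Pcdhb10, had no read in any library and was not tested. For the 21 beta genes that were tested, DESeq2 gave no adjusted p, so it could call none of them. A count of 0 allows up to 3 reads, or 0.0982 to 0.133 CPM depending on the library, which covers counting error only.

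The level of the gamma constant region was read from the lowest gamma gene, Pcdhga6, which was chosen after its values were seen because it was the lowest of the cluster in every library. Pcdhga6 had 2672 and 2470 reads with dox and 2739 and 2153 reads without. In CPM these were 119 and 108 with dox and 89.7 and 85.8 without. Both +dox libraries were above both −dox libraries, and the gap between groups exceeded the spread within them, with means of 113 ± 7.44 CPM (SD, n = 2) and 87.7 ± 2.74 CPM (SD, n = 2).

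Within the table of replicate 1 the ratio was 1.32-fold and within that of replicate 2 it was 1.26-fold. In a further fit the shared reads were subtracted from the cluster's rows and added as 1 row, and Pcdha7-g was left out. There the shared gamma reads gave a log2 fold change of 0.37 ± 0.10 (SE), with a 95% interval from 0.15 to 0.59. The adjusted p was 0.0782 in edgeR's quasi-likelihood test and 0.0378 in DESeq2, so the difference did not pass 0.01 in either. Without +dox replicate 1, the library with the highest fibroblast level, the log2 fold change of Pcdhga6 was 0.30.

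As counted, all 22 gamma genes had a log2 fold change above 0, from 0.33 for Pcdhgc3 to 0.39 for Pcdhgb2, with a median of 0.37, beside a median of 0.01 over all genes tested. Their adjusted p ran from 0.0646 to 0.120 in edgeR and from 0.0272 to 0.0949 in DESeq2. All 22 were higher in both +dox than in both −dox libraries, as were 23.3% of all genes tested. Of each gamma gene's reads, between 82.4% and 100.0% were no more than those of the lowest gene, so this agreement in size repeats the constant region. The read-through row Pcdha7-g, with 2669 and 2468 reads with dox and 2739 and 2153 without, followed the gamma genes and not the alpha genes between which it is listed.

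**Figure D1:**
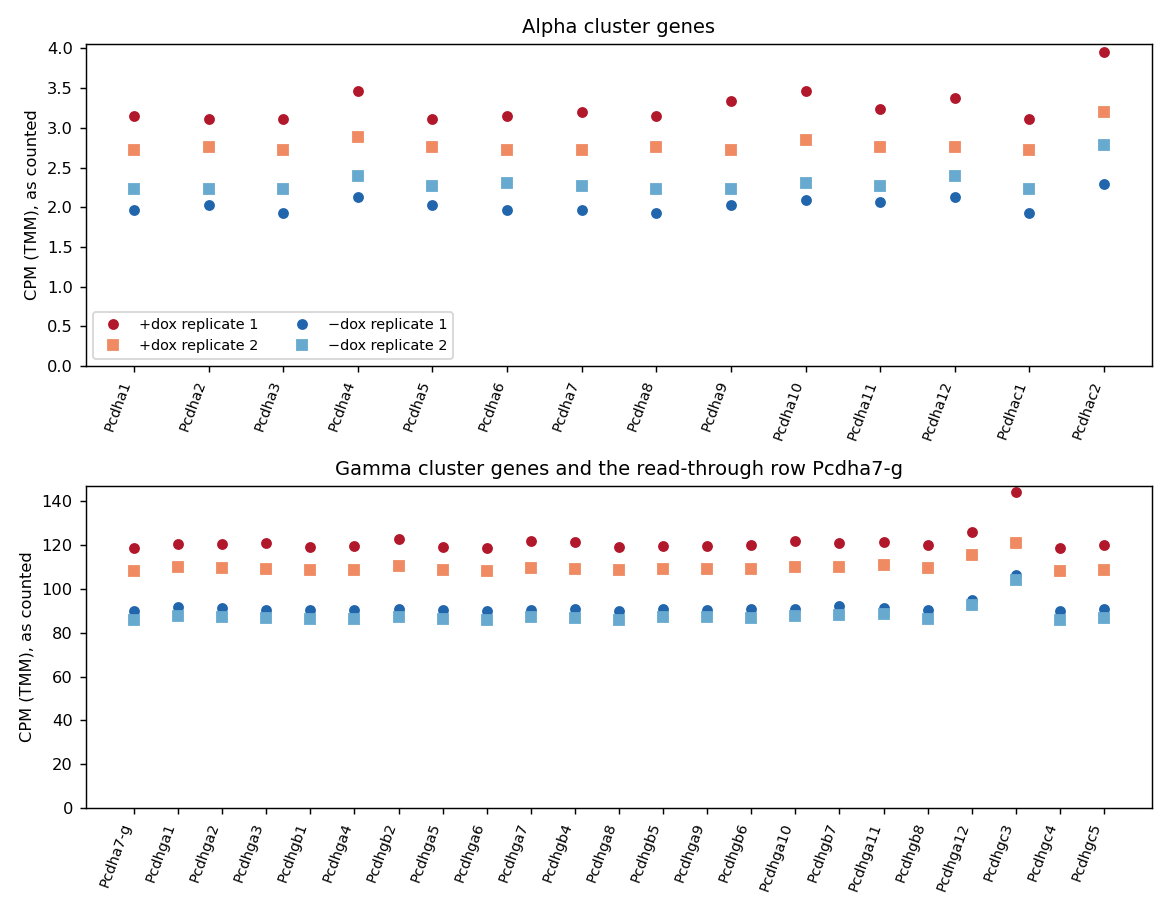
Level of each alpha gene (top) and of each gamma gene and Pcdha7-g (bottom) in CPM as counted, over all exons, with 1 point per library (red, +dox; blue, −dox; circles, replicate 1; squares, replicate 2). Within a cluster the genes sit at nearly one height because they share the reads of the constant exons, and all +dox points lie above the −dox points.

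What is particular to a gene is its variable exon. The reads of each gene above those of the lowest gene of its cluster, called own reads here, were taken as a measure of it; they are a lower bound, since any read on the variable exon of the lowest gene is subtracted from all others. Summed over the 22 gamma genes, own reads numbered 1418 and 904 with dox and 1261 and 1132 without, or 63.0 and 39.6 CPM against 41.3 and 45.1 CPM. One +dox library was the highest of the 4 and the other the lowest. The log2 ratio of +dox to −dox was 0.61 in the first replicate and −0.19 in the second, so the groups overlapped where the constant region did not. The place of +dox replicate 2 rested on Pcdhgc3: without that gene the sums were 37.7 and 27.0 CPM with dox and 24.5 and 27.1 CPM without, with a log2 ratio of 0.62 in the first replicate and −0.0088 in the second.

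Pcdhgc3, a C-type gene, had the most own reads. They numbered 569 and 288 with dox and 514 and 451 without, or 25.3 and 12.6 CPM against 16.8 and 17.97 CPM. The +dox libraries lay on either side of both −dox libraries, and the log2 fold change was 0.12 with a 95% interval from −0.44 to 0.68 (adjusted p = 0.837, edgeR). Pcdhgc3 made up 40.1%, 40.8% and 39.8% of the summed gamma own reads in +dox replicate 1, −dox replicate 1 and −dox replicate 2, and 31.9% in +dox replicate 2, whose 95% Wilson interval, for counting error only, ran from 28.9% to 35.0%. The highest Pcdhgc3 level was thus in the library with the highest fibroblast sum, and the part of feeder RNA in it was not tested.

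Pcdhga12, the last A-type gene before the C-type genes, had the next highest own level, and was named after its values were seen. It had 160 and 169 own reads with dox and 161 and 172 without, or 7.11 and 7.40 CPM against 5.27 and 6.85 CPM. The groups did not overlap, but the log2 fold change of 0.26 did not pass the test (adjusted p = 0.614, edgeR). Per kilobase of variable exon, the mean own level over the 4 libraries was 7.10 CPM for Pcdhgc3 and 2.25 CPM for Pcdhga12. The other gamma genes with own reads lay between 0.056 CPM per kb for Pcdhgc4 and 0.919 CPM per kb for Pcdhga11.

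Pcdhgb2, a B-type gene, had the highest log2 fold change in own reads of the gamma genes. It had 88 and 46 own reads with dox and 28 and 32 without, or 3.91 and 2.01 CPM against 0.917 and 1.28 CPM. Both +dox libraries were above both −dox libraries. The log2 fold change was 1.44 ± 0.38 (SE), with a 95% interval from 0.61 to 2.27, and the adjusted p was 0.0702 in edgeR and 0.113 in DESeq2, so it did not pass 0.01. As counted, Pcdhgb2 also had the largest log2 fold change of the gamma genes. These counts contain the same own reads and are not a separate measurement.

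The other alternate gamma genes went both ways. Pcdhga7 had 68 and 30 own reads with dox and 25 and 34 without (log2 fold change 1.00, unadjusted p = 0.0396 and adjusted p = 0.253 in edgeR), and its libraries overlapped. Pcdhga3, with 49 and 21 own reads against 15 and 25, overlapped in the same way. Pcdhgb7 had 48 and 35 own reads with dox and 71 and 58 without, a log2 fold change of −0.34 (adjusted p = 0.645, edgeR), with both +dox libraries below both −dox libraries in CPM.

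Among the C-type genes of the cluster, Pcdhgc4, which is known for its role in the survival of cortical interneurons, had 0 and 3 own reads with dox and 11 and 4 without. Pcdhgc5 had 32 and 9 own reads with dox and 36 and 19 without, and its libraries overlapped.

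Of the 21 gamma genes with own reads, 14 had a log2 fold change above 0 and 7 below, with a median of 0.20. At an adjusted p under 0.01 edgeR called 0 of them, beside 0.559% of all genes in that fit. An unadjusted p under 0.05 in edgeR was reached by 2 (Pcdhgb2 and Pcdhga7), beside 17.8% of all genes as counted. DESeq2 on the same reads also called 0. It gave no adjusted p for Pcdhgb1, Pcdhga4, Pcdhga5, Pcdhga8, Pcdhga9, Pcdhgb6, Pcdhgb8, Pcdhgc4 and Pcdhgc5, so these could not be called. In 4 of the genes both +dox libraries were the higher and in 3 the lower, beside 23.3% and 23.7% of all genes as counted. The highest library was +dox replicate 1 for 12 of the 21 genes and +dox replicate 2 for 3. All 36 fibroblast genes were highest in +dox replicate 1. Of the 20 naive pluripotency genes 3 were highest in +dox replicate 1 and 13 in +dox replicate 2, so that list is no neutral baseline.

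**Figure D2:**
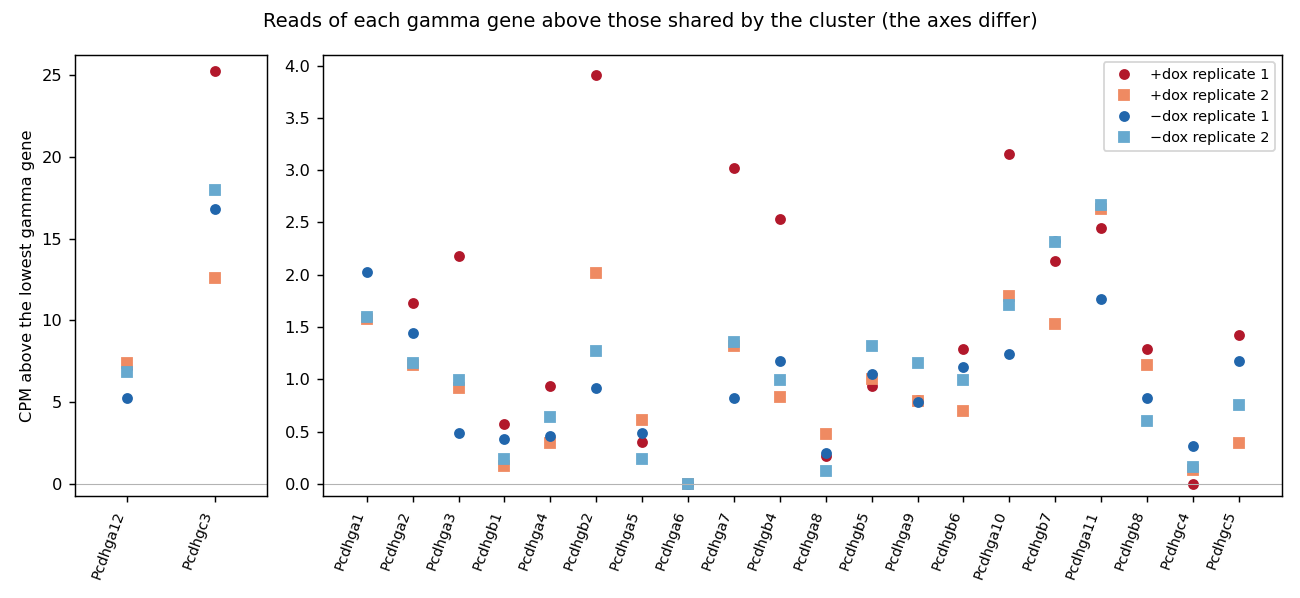
Own reads of each gamma gene in CPM, that is, reads above those of Pcdhga6, the lowest gene, in each library (red, +dox; blue, −dox; circles, replicate 1; squares, replicate 2), with Pcdhga12 and Pcdhgc3 on an axis of their own. Pcdhgc3 is the highest at 12.6 to 25.3 CPM, and Pcdhgb2 is the gene whose +dox points, at 3.91 and 2.01 CPM, stand farthest above its −dox points relative to their level.

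The alpha cluster was expressed far below the gamma cluster. Its lowest genes, Pcdha3 and Pcdhac1, named for that reason after their values were seen, had the same counts, 70 and 62 reads with dox and 59 and 56 without. These correspond to 3.11 and 2.72 CPM with dox and to 1.93 and 2.23 CPM without. Per kilobase of constant exon, the alpha constant region was at 1.09 and 0.949 CPM with dox and 0.675 and 0.780 CPM without. The gamma constant region was at 56.0 and 51.0 CPM per kb with dox and 42.3 and 40.5 CPM per kb without.

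Both +dox libraries were above both −dox libraries for the alpha constant region, with means of 2.91 ± 0.279 and 2.08 ± 0.212 CPM (SD, n = 2 each). The ratio was 1.61-fold in the first replicate and 1.22-fold in the second. As 1 row, these reads gave a log2 fold change of 0.49 ± 0.28 (SE) with a 95% interval from −0.13 to 1.11, and an adjusted p of 0.417 in edgeR and 0.632 in DESeq2. At 56 to 70 reads per library the interval held both 0 and the gamma estimate, and the difference between the clusters was not tested. As counted, all 14 alpha genes had a log2 fold change above 0, from 0.44 for Pcdha12 to 0.52 for Pcdha10, with a median of 0.49 and adjusted p from 0.373 to 0.462 in edgeR, and all 14, which share most of their reads, were higher in both +dox libraries, as were 23.3% of all genes tested.

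Own reads of the alpha genes were few, 54 and 23 with dox and 44 and 29 without over all 14 genes. Pcdhac2, the C-type gene next to the constant exons, had the most, with 19 and 11 own reads with dox and 11 and 14 without. Pcdha4 had 8 and 4 own reads with dox and 6 and 4 without, and Pcdha10 had 8 and 3 with dox and 5 and 2 without. In CPM the libraries of the 2 groups overlapped for each of these 3 genes. The remaining alpha genes had at most 6 own reads in any library, so which alpha promoters were used could not be resolved at this depth.

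Beta genes share no exon, so their counts can be compared and summed. The 22 beta genes together had 100 and 27 reads with dox and 67 and 43 without, or 4.44 and 1.18 CPM against 2.19 and 1.71 CPM. The +dox libraries were the highest and the lowest of the 4. The log2 ratio was 1.02 in the first replicate and −0.54 in the second, and the sums of the groups did not differ beyond the spread between the +dox cultures, with means of 2.81 ± 2.30 and 1.95 ± 0.339 CPM (SD, n = 2 each). Without +dox replicate 1 the log2 ratio of the sums was −0.72. That library, which has the highest beta sum, also has the highest fibroblast sum, and the part of feeder RNA in the beta reads was not tested. Per kilobase of exon, the summed beta levels were 1.27 and 0.365 CPM with dox and 0.685 and 0.487 CPM without. The alpha constant region, at 1.09 and 0.949 CPM per kb with dox and 0.675 and 0.780 without, was thus of the same order.

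Pcdhb22, the beta gene nearest to the gamma cluster, led the beta reads in each library with 24 and 6 reads with dox and 26 and 13 without, or 22.2% to 38.8% of the beta reads. Its log2 fold change was −0.06 with a 95% interval from −1.36 to 1.24. Pcdhb17 had 16 and 3 reads with dox and 2 and 8 without, and Pcdhb14 had 15 and 2 with dox and 5 and 2 without. Both were highest in +dox replicate 1, and overlapped between the groups.

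Only 11 of the 22 beta genes had more than 3 reads in any library, and 7 of these 11 were highest in +dox replicate 1. Pcdhb4, Pcdhb16 and Pcdhb19 passed 3 reads in +dox replicate 1 alone, and Pcdhb2 and Pcdhb21 in −dox replicate 1 alone. The choice of these 11 thus partly fixes which library is highest and how the groups compare. The other 11, such as Pcdhb1 and Pcdhb15, had 3 reads or fewer in each library, and no fold change is given for them. Between 12 and 17 beta genes had at least 1 read in a library, and no beta gene reached a mean of 1 CPM. Of the 11 beta genes with more than 3 reads in a library, 7 had a fitted log2 fold change above 0 and 4 below, and adjusted p ran from 0.383 to 0.968 in edgeR. In 2 of these 11 both +dox libraries were the higher and in 1 the lower, beside 23.3% and 23.7% of all genes.

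**Figure D3:**
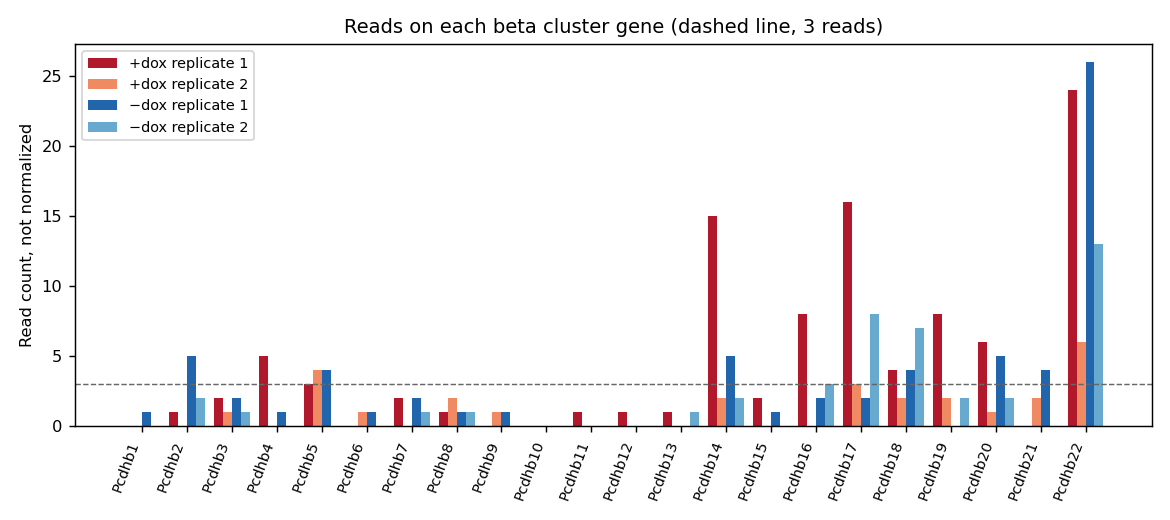
Read counts of the 22 beta genes, not normalized, with 1 bar per library (red, +dox; blue, −dox; dark, replicate 1; light, replicate 2) and a dashed line at 3 reads. Of the 22 genes, 11 have 3 reads or fewer in every library, Pcdhb22 leads with 24, 6, 26 and 13 reads, and Pcdhb14 and Pcdhb17 stand out in +dox replicate 1 alone.

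Side by side, the clusters differed in how their libraries fell. The constant regions of gamma and alpha separated +dox from −dox in both replicates, whereas the own reads of Pcdhgc3 and the beta sum were highest in +dox replicate 1 and lowest in +dox replicate 2. The summed gamma own reads, which include Pcdhgc3, followed the same order, but without Pcdhgc3 their lowest library was −dox replicate 1. Per kilobase of variable exon, the summed gamma own reads were at 24.6 and 15.3 CPM with dox and 16.1 and 17.5 CPM without. The gamma constant region was higher in each library, at 56.0 and 51.0 CPM per kb with dox and 42.3 and 40.5 CPM per kb without. The difference between the constant regions and the own reads was not tested.

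**Figure D4:**
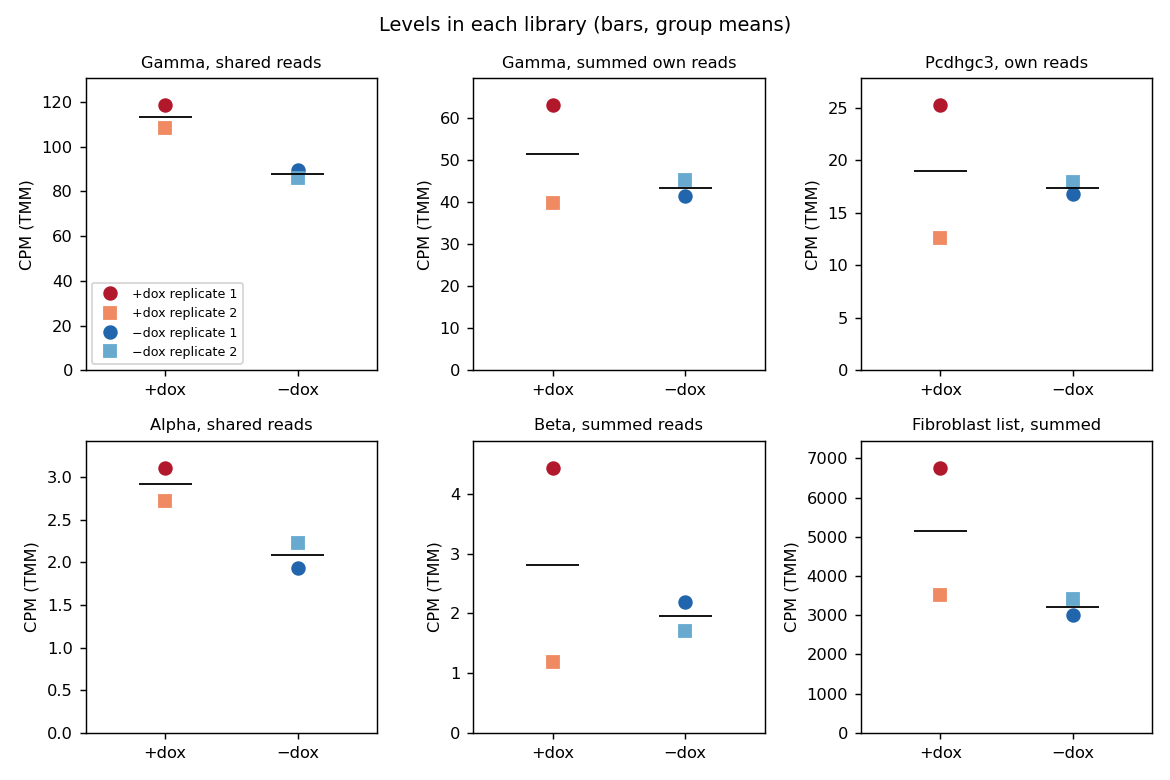
Level in CPM in each library of the gamma shared reads, the summed gamma own reads, the Pcdhgc3 own reads, the alpha shared reads, the summed beta reads and the summed list of 36 fibroblast genes; points are libraries (red, +dox; blue, −dox) and bars group means. The shared reads separate the groups, while the summed own, Pcdhgc3 and beta panels span the −dox points. The fibroblast sum is highest, at 6761 CPM, in +dox replicate 1. In +dox replicate 2, at 3512 CPM, it also lies above both −dox libraries, at 3003 and 3418 CPM.

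**Figure D5:**
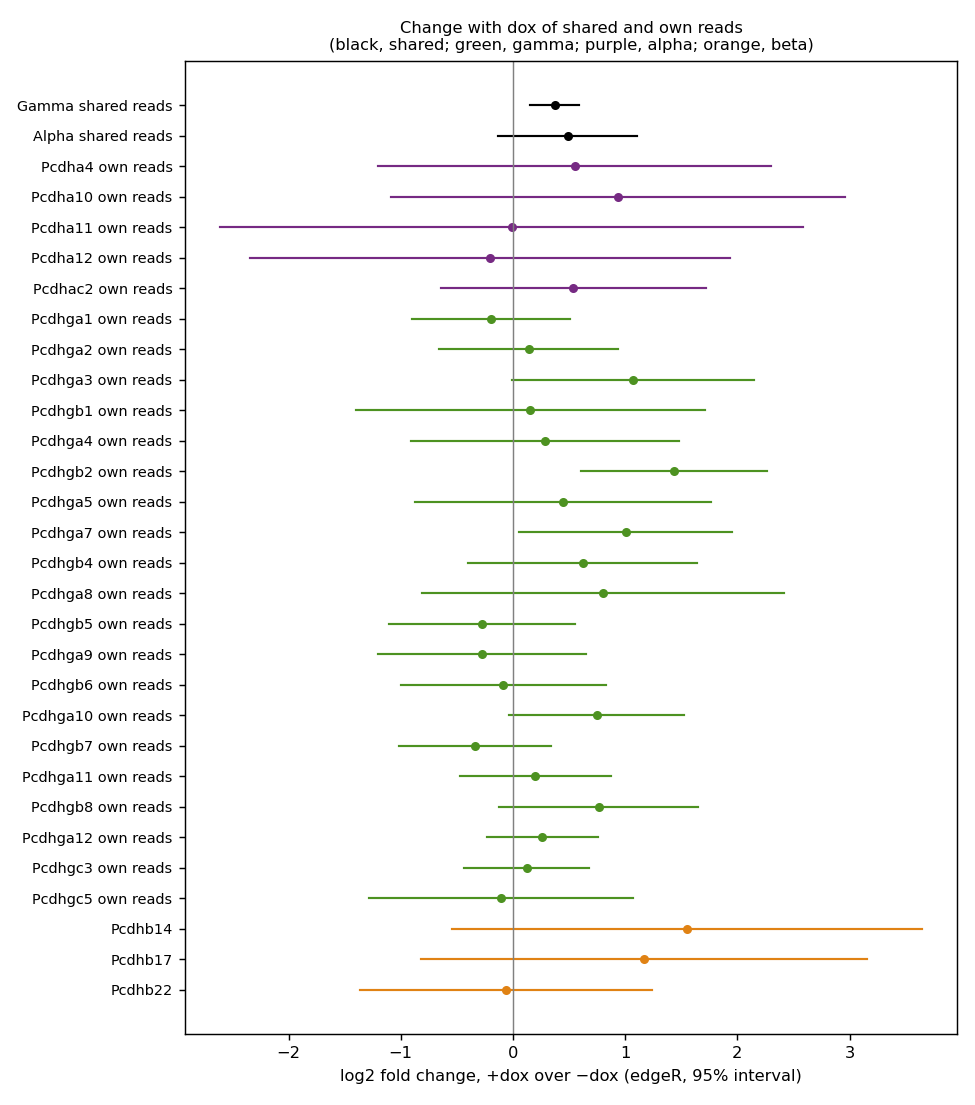
Log2 fold change of +dox over −dox with its 95% interval (edgeR) for the shared reads of gamma and alpha, for the own reads of genes with more than 3 own reads in a library and in each group, and for the 3 beta genes with the most reads. The interval of the gamma shared reads (0.15 to 0.59) is the narrowest, and among own reads those of Pcdhgb2 and Pcdhga7 lie above 0 before adjustment.

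Factors known to act on the clusters were examined next, from a list of 21 genes for CTCF, cohesin and its loaders and releasers, DNA methyltransferases and repressors. edgeR called 0 of the 21 (0.599% of all genes) and DESeq2 called 2 (1.87% of all genes), and 6 had an unadjusted p under 0.05 in edgeR (17.8% of all genes). Smchd1, a chromatin protein that represses the clusters, was at 93.6 and 87.5 CPM with dox and at 127 and 122 CPM without. Both +dox libraries were the lower, with a log2 fold change of −0.46, an adjusted p of 0.0309 in edgeR and 0.00449 in DESeq2.

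Trim28, a corepressor of zinc finger proteins and the other gene DESeq2 called, was named after its values were seen. It had a log2 fold change of 0.35 (adjusted p = 0.0296 in edgeR and 0.00472 in DESeq2). The cohesin subunit Rad21 (log2 fold change −0.15, adjusted p = 0.459), the methyltransferase Dnmt3b (−0.14, adjusted p = 0.735) and the repressor of neuronal genes Rest (0.03, adjusted p = 0.889) did not pass the test in edgeR. A list of 20 signalling and cytoskeletal partners of the proteins, such as the kinases Ptk2 and Ptk2b, also had 0 genes called by edgeR and by DESeq2, with 3 at an unadjusted p under 0.05, beside the same shares of all genes.

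The 12 non-clustered protocadherins, which are separate genes with their own promoters, had 0 genes called by edgeR, 1 by DESeq2 (1.87% of all genes), and 6 at an unadjusted p under 0.05 (17.8% of all genes). Of the 12, 7 had a log2 fold change above 0, and in 5 both +dox libraries were the higher and in 1 the lower, beside 23.3% and 23.7% of all genes. The gene DESeq2 called was Pcdh1, an adhesion protein of epithelia, named after its values were seen. Pcdh1 was at 16.5 and 9.81 CPM with dox and at 33.0 and 22.8 CPM without, with both +dox libraries the lower (log2 fold change −1.09, adjusted p = 0.0336 in edgeR and 0.00310 in DESeq2). Of the 12, 8 were highest in +dox replicate 1, beside 2 of the 21 factors and 4 of the 20 partners above.

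Around the clusters, 16 neighbouring genes were examined. Taf7, the general transcription factor gene between the beta and gamma clusters, was at 126 and 134 CPM with dox and at 127 and 137 CPM without, with a log2 fold change of −0.02. The 1 neighbour called was Arap3, a regulator of small GTPases, which fell from 9.07 and 10.4 CPM without dox to 2.80 and 2.72 CPM with dox (log2 fold change −1.82, adjusted p = 0.00182, edgeR). Without −dox replicate 1 or replicate 2 its adjusted p was 0.550 or 0.670, where edgeR called 0 of all genes. The other neighbours did not pass the test. The 1 of 16 called lower stands beside 0.519% of all genes. An unadjusted p under 0.05 in edgeR was reached by 3 of the 16, beside 17.8% of all genes. In 5 of the 16 both +dox libraries were the higher and in 5 the lower, beside 23.3% and 23.7% of all genes.

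The other cell types were read from marker lists. In the list of 22 neural genes, the tissue in which the clusters are most used, 16 genes had a log2 fold change above 0 (median 0.27). Over all 20044 genes tested, 10178 were above 0, with a median of 0.01. The sum of the neural list was 719 and 817 CPM with dox and 643 and 624 CPM without, and Dcx was at 0 in at least 1 library. Pax6, a neural progenitor factor, was called higher, as were 0.0798% of all genes. DESeq2 called 2 of the 22 neural genes, beside 1.87% of all genes. An unadjusted p under 0.05 in edgeR was reached by 11 of the 22, beside 17.8%. In 10 of the 22 both +dox libraries were the higher and in 3 the lower, beside 23.3% and 23.7% of all genes. In the list of 20 primitive streak genes, 10 were called lower (median −1.55), beside 0.519% of all genes. Of the 36 fibroblast genes 34 had a log2 fold change above 0 (median 1.11). Mgp, a matrix protein, was the 1 fibroblast gene called higher, beside 0.0798% of all genes. At an adjusted p under 0.05 edgeR called 12 of the 36, beside 2.86% of all genes. An unadjusted p under 0.05 was reached by 28, beside 17.8%. In 23 of the 36 both +dox libraries were the higher and in 0 the lower, beside 23.3% and 23.7% of all genes. The naive pluripotency list had 0 genes called by edgeR and by DESeq2, beside 0.599% and 1.87% of all genes. In that list 8 genes had an unadjusted p under 0.05 in edgeR, beside 17.8% of all genes. DESeq2 also called Pax6, but not Mgp (adjusted p = 0.0334), whose call was lost as well with adjusted deviances (0.138) and filterByExpr (0.0586). Without either −dox library, where edgeR called 0 of all genes, the calls of Pax6, Mgp and the 10 streak genes were lost, while the log2 fold change was 1.12 and 1.05 for Pax6 and 1.63 and 1.76 for Mgp, and the 10 streak genes stayed below 0. The part of any of these lists in the gamma difference was not tested.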

How the data were processed

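Directional poly(A) RNA-seq libraries of 2 +dox and 2 −dox cultures, described in the study's methods as biological replicates, were compared. The authors used cutadapt for trimming, TopHat2 for alignment (mm9) and HOMER for counting unique reads on exons, after duplicates were removed. The deposited values are raw counts, in a table for each replicate number. Tool versions and the use of strand in counting are not given in the sources used here, so reads of overlapping and antisense genes cannot be told apart. That reads on constant exons were counted for each gene holding them was inferred from the near-identical counts.

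The tables were joined by symbol. The 20044 genes not at 0 in all 4 libraries were fitted with edgeR 4.0.16 (R 4.3.3), by TMM and the quasi-likelihood test with default settings and no block, adjusted by the Benjamini-Hochberg method over all genes, at a threshold of 0.01. DESeq2 1.42.0 was the alternative. Its adjusted p was NA for the 21 beta genes tested, for the own reads of the alpha genes and for those of the gamma genes listed above. Constant exons were taken from the GENCODE annotation of the mm9 assembly. The code was tested on simulated data. Members, lists and tests were chosen with earlier results of these data known. Genes were named by a rule: per cluster the 3 largest and 3 smallest log2 fold changes among genes averaging 1 CPM or more (which no beta gene did) and the 3 highest levels per kb, the C-type genes, called genes of the lists, and Ctcf, Smchd1, Dnmt3b, Rad21, Rest and Taf7. Genes outside the rule are marked as such, were named to describe own reads after their values were seen, or illustrate a list or cluster.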

Additional observations from a re-analysis of the deposited data

How the results depend on the processing

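The number of members called was 0 at an adjusted p under 0.01 with edgeR, DESeq2, deviances adjusted for small counts, DESeq2 size factors, filterByExpr and subtraction of the shared reads. Leaving out 1 library at a time gave 0 to 2; the 2 (Pcdhgb2 and Pcdhgc3) arose without +dox replicate 2, where 4.43% of all genes were called. At an adjusted p under 0.05, edgeR called 0 members and, in alternatives chosen after seeing the data, DESeq2 called 22 (3.88% of all genes). The replicate block gave 0 members at 0.01 and 23 at 0.05 (9.34% of all genes). Same-numbered libraries share a replicate number and a count table, and had a correlation of deviations of 0.196. Whether same-numbered cultures were paired is not stated in the sources used here. Over all genes, calls at 0.01 were 120 with edgeR, 375 with DESeq2, 786 with the block, 11 with filterByExpr, 0 with adjusted deviances, 0 without either −dox library, 992 without +dox replicate 1 and 877 without +dox replicate 2; there the lone library of a group is assumed to vary like the other group.

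The gamma median was 0.20 with the shared reads subtracted and 0.30 to 0.44 without 1 library; the median fitted over the 21 beta genes tested, 10 of them at 3 reads or fewer, was 0.30 and ran from −1.15 to 1.16 and the log2 ratio of the beta sums from −0.72 to 1.19, both lowest without +dox replicate 1; the highest beta median was without −dox replicate 1. Filtering to a mean of 1 CPM left no beta gene. Leaving out 1 library reversed the sign of Pcdhb22 (−1.38 to 0.62), Pcdhb17 (−0.46 to 2.59), Pcdhb14 (−0.49 to 2.37), Dnmt3b (−0.55 to 0.17), Rest (−0.080 to 0.14) and Taf7 (−0.075 to 0.034). Of 394 alternative values of 44 single genes, 328 kept their direction and side of the threshold and 9 reversed. The causes were not tested. Depth limits the alpha and beta clusters.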

Other observations

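Rows outside the symbol rule carried the gamma reads too. Gm37013, a row that spans both clusters from position 37112302 to 38001526, had 2675 and 2472 reads with dox and 2744 and 2156 without, and Gm38666, from 37127285 to 38001526, had 2668 and 2468 with dox and 2739 and 2154 without. With Pcdha7-g these are 3 rows that begin among the alpha genes and end in the gamma constant exons, and each was within 5 reads of Pcdhga6 in every library. Their log2 fold changes were 0.37 each, from largely the same reads.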
